A study of Mus musculus with 9 samples.

Results

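The chemokine genes followed here, 10 in all, were measured in rat heart muscle cells that overexpressed the transcription factors Nrf1 or Nrf2. The 10 genes were *Ccl2*, *Ccl5*, *Ccl7*, *Ccl20*, *Cxcl1*, *Cxcl10*, *Cxcl11*, *Cxcl12*, *Cxcl16* and *Cx3cl1*. They were chosen by gene symbol, not by a threshold on their values, though with earlier results of these data known. All were found among the 15144 genes listed for the 3 groups. The cells were NRVMs, ventricular cardiomyocytes isolated from Sprague-Dawley rats 1 or 2 days old. After 48 h in culture they were infected at a multiplicity of infection of 50 with Adeno-LacZ, which carries the bacterial enzyme β-galactosidase as the control, Adeno-Nrf1 or Adeno-Nrf2, and each group had 3 libraries. The viruses carried the mouse coding regions behind a CMV promoter, which is not limited to cardiomyocytes, together with a red fluorescent protein. All 3 groups had therefore received an adenovirus, and no uninfected cells were analysed here.

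Chemokines are small secreted or membrane-bound proteins that bind G protein-coupled receptors on leukocytes and direct their migration. Many of them are transcribed on demand, the Cxcr3 ligands mainly after interferon and the monocyte and neutrophil attractants mainly after activation of NF-κB, whereas Cxcl12 is made constitutively by stromal cells. In the injured heart, chemokines are known for recruiting neutrophils and monocytes.

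The deposited values are group means of normalized reads. Each group appears in 2 of the 3 deposited tables with different scaling, and the decimals of its 2 means were solved for the whole reads of each library. A single set of reads solved both means for 99.98% of LacZ genes with reads, 99.85% of Nrf1 genes and 99.85% of Nrf2 genes, and for every chemokine gene. The libraries recovered in this way are called a, b and c within each group in order of depth, and these letters do not stand for the replicate numbers of the labels. They held between 7759576 and 11802341 reads, and levels are given below as RPM, the reads of a gene per 1000000 reads of its library. Nothing in the labels says whether the 3 libraries of a group came from separate cell isolations, so the p-values measure the spread between these libraries, which may be technical. The overexpression of Nrf2 was seen in *Nfe2l2*, the gene of Nrf2, at 374 to 380 RPM in LacZ, 291 to 298 in Nrf1 and 6889 to 8056 in Nrf2 libraries, without telling transgene reads from the cells' own. *Nfe2l1*, the gene of Nrf1, was not analysed here. 

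LacZ library b stood apart from the other LacZ libraries for part of the chemokine genes. Relative to the mean of libraries a and c, it held 3.10 times as much *Ccl5*, 1.87 times as much *Cxcl1*, 1.70 times as much *Ccl2* and 1.65 times as much *Ccl7*. *Cxcl16* was at 1.27 times, *Cxcl10*, *Cxcl11*, *Cxcl12* and *Cx3cl1* at 1.04 to 1.14 times, and *Ccl20* at 0.743 times. In this library 15 of 16 leukocyte markers were also higher than in the other two, 8 of them by more than 1.5 times, and 7 of 7 fibroblast markers were higher. Over all genes, 3.21% exceeded 1.5 times the other libraries of the group in LacZ library b, against 1.29% to 1.87% in the other 8 libraries. Results that lost their call or turned without this library are given below, with the value without it where the gene could still be tested.

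With Nrf1, 8 of the 9 chemokine genes that could be tested were lower than with LacZ, and *Ccl20* was higher. With Nrf2, 8 of the 9 were lower than with LacZ, and *Ccl20* was not called. A gene was called where the fold change exceeded 1.5 and the adjusted p in limma was under 0.05. Over all genes tested, 17.1% were called lower and 11.3% higher with Nrf1, and 9.81% were called lower and 9.2% higher with Nrf2. When libraries were scaled by their total reads in place of the authors' size factors, an alternative chosen after seeing the data, the calls over all genes with Nrf2 went from 1139 lower and 1068 higher to 1464 lower and 848 higher, and no chemokine gene changed direction. The median log2 fold change of the chemokine genes was -1.94 with Nrf1 and -1.17 with Nrf2, beside a median of all genes tested of 0.00363 and -0.00296. For each of the 8 genes the 3 libraries with Nrf1, and the 3 with Nrf2, were all under the 3 LacZ libraries after scaling by the size factors, which held for 34.4% of all genes tested with Nrf1 and 30% with Nrf2. The opposite, as seen for *Ccl20* with Nrf1, held for 36.2% with Nrf1 and 31.7% with Nrf2. Only *Ccl5* lay under the minimum mean of 10 for testing. Both comparisons use the same LacZ libraries. In bulk RNA of a culture, fewer cells of a type and less RNA per cell cannot be told apart. Without LacZ library b, 8 genes were called lower with Nrf1 and 7 with Nrf2, and *Ccl20* was not called with either.

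**Figure D1:**
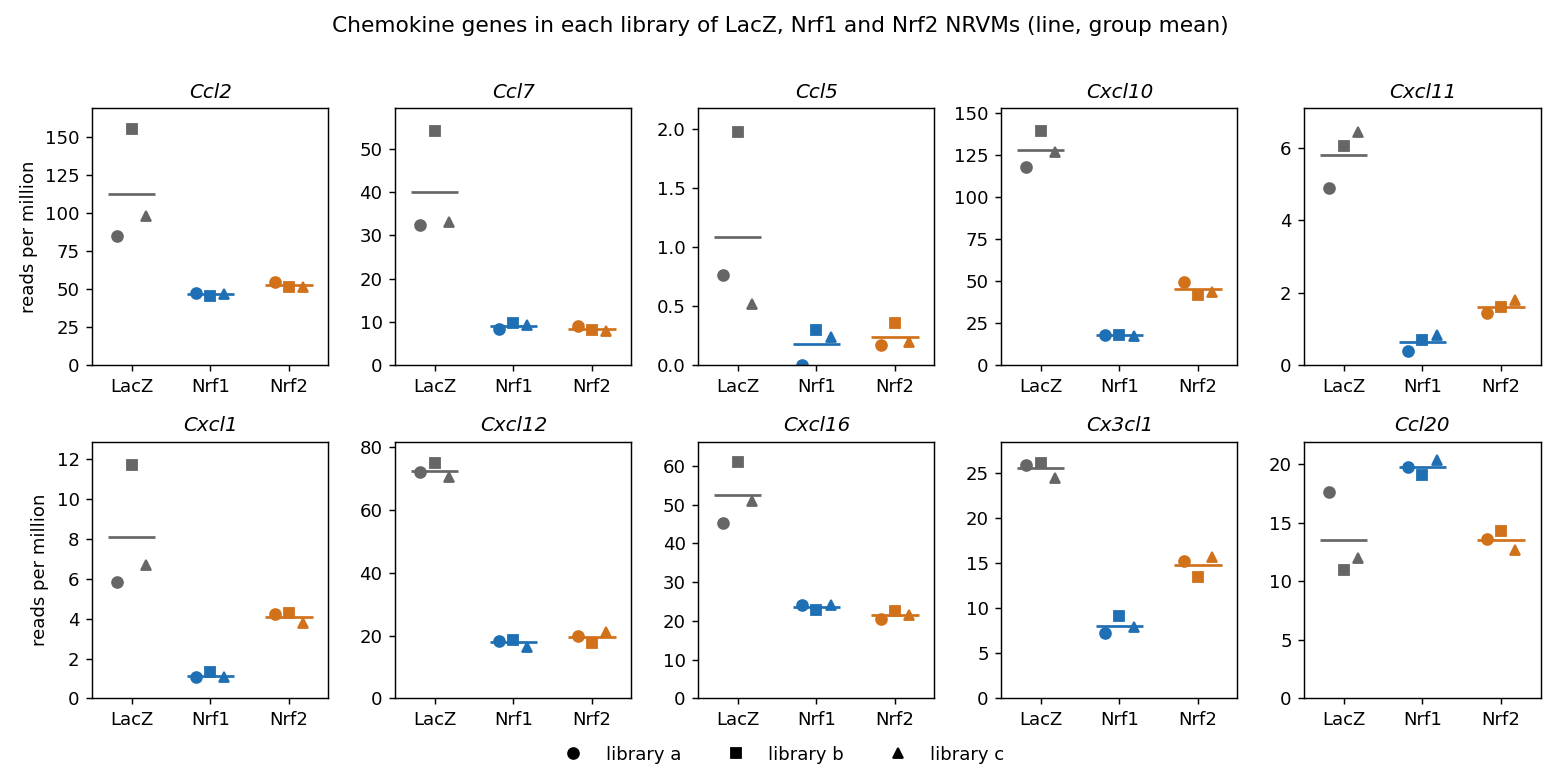
Level of each chemokine gene, in RPM on a linear axis from 0, in libraries a, b and c of LacZ, Nrf1 and Nrf2 NRVMs, with the group mean as a line. In all panels but that of *Ccl20* the 3 LacZ libraries lie above the Nrf1 and Nrf2 libraries, and LacZ library b is the highest of all for *Ccl2*, *Ccl7*, *Ccl5*, *Cxcl1*, *Cxcl10*, *Cxcl12*, *Cxcl16* and *Cx3cl1*.

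*Ccl2* and *Ccl7* encode ligands of Ccr2, the receptor that brings monocytes into tissue. *Ccl2* was at 84.8, 155 and 98.1 RPM in LacZ, 47.6, 45.7 and 46.8 in Nrf1, and 54.7, 51.5 and 51.2 in Nrf2. The lowest LacZ library was above every library with Nrf1 or Nrf2, and the wide spread within LacZ came from library b. *Ccl2* fell by 1.14 on the log2 scale with Nrf1 (SE 0.16, adjusted p = 1.34e-05) and by 0.95 with Nrf2 (SE 0.16, adjusted p = 0.000106). Without LacZ library b it fell by 0.89 and 0.70. *Ccl7* was at 32.5, 54.2 and 33.1 in LacZ, 8.41, 9.63 and 9.19 in Nrf1, and 9.07, 8.20 and 7.75 in Nrf2. Its Nrf1 and Nrf2 libraries overlapped, and all of them lay far under LacZ. The fold change was 4.03-fold lower with Nrf1 (log2 -2.01, SE 0.20, adjusted p = 3.67e-07) and 4.31-fold lower with Nrf2 (log2 -2.11, SE 0.20, adjusted p = 5.37e-07). These 2 genes and *Ccl12* are close paralogs, and reads that match more than one of them could have been split or lost in the authors' counting.

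*Ccl5*, which attracts T cells and monocytes, was barely detected. It had 7, 16 and 4 reads in the LacZ libraries, 0, 3 and 2 in the Nrf1 libraries and 2, 4 and 2 in the Nrf2 libraries. No reads in Nrf1 library a still allows up to 0.294 RPM, a limit that covers counting error only. The lowest LacZ library, c, lay above every Nrf1 and Nrf2 library, at 0.515 against at most 0.357 RPM. When genes with low values were kept in the fit, *Ccl5* was at -2.48 on the log2 scale with Nrf1 (SE 0.69, adjusted p = 0.00574) and at -1.74 with Nrf2 (SE 0.53, adjusted p = 0.0142). At 27, 5 and 8 reads over the libraries of LacZ, Nrf1 and Nrf2, a difference between Nrf1 and Nrf2 was not detectable at this depth (log2 0.72, 95% interval -0.68 to 2.13).

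*Cxcl10* and *Cxcl11* encode interferon-induced ligands of Cxcr3, a receptor of activated T cells and natural killer cells. *Cxcl10* was at 118, 140 and 127 RPM in LacZ, 17.8, 17.96 and 17.4 in Nrf1, and 49.7, 41.9 and 43.7 in Nrf2. The 3 groups did not overlap, and Nrf2 lay between Nrf1 and LacZ. Relative to LacZ, *Cxcl10* was 6.81-fold lower with Nrf1 (log2 -2.77, SE 0.09, adjusted p = 3.69e-13) and 2.65-fold lower with Nrf2 (log2 -1.41, SE 0.07, adjusted p = 4.02e-10). Between the 2 factors it was 2.55-fold higher with Nrf2 than with Nrf1 (log2 1.35, SE 0.08, adjusted p = 1.39e-10). *Cxcl11* was at 4.89, 6.05 and 6.44 in LacZ, 0.391, 0.702 and 0.825 in Nrf1, and 1.44, 1.61 and 1.79 in Nrf2. It showed the same order of groups, with 4 to 7 reads in each Nrf1 library. *Cxcl11* fell by 3.06 on the log2 scale with Nrf1, the largest fold change of the 9 genes (SE 0.33, adjusted p = 7.57e-07), and by 1.72 with Nrf2 (SE 0.23, adjusted p = 1.54e-05). With Nrf2 it was 2.52-fold higher than with Nrf1 (log2 1.34, SE 0.35, adjusted p = 0.00309).

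*Cxcl1* encodes a neutrophil attractant that acts on Cxcr2. It was at 5.86, 11.7 and 6.70 RPM in LacZ, 1.08, 1.30 and 1.06 in Nrf1, and 4.24, 4.28 and 3.78 in Nrf2. The Nrf2 libraries lay between Nrf1 and LacZ, and again no groups overlapped. *Cxcl1* was 6.12-fold lower with Nrf1 than with LacZ (log2 -2.61, SE 0.35, adjusted p = 8.44e-06) and 1.74-fold lower with Nrf2 (log2 -0.80, SE 0.23, adjusted p = 0.00868). The call with Nrf2 rested on LacZ library b, without which *Cxcl1* was at -0.51 (adjusted p = 0.0281), under the fold cutoff. Nrf2 was 3.49-fold above Nrf1 (log2 1.80, SE 0.25, adjusted p = 6.27e-06), a comparison in which no LacZ library takes part. *Cxcl1* and *Cxcl3* are similar in sequence, so their counts carry the same uncertainty as those of *Ccl2* and *Ccl7*.

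*Cxcl12* encodes the ligand of Cxcr4 and of the scavenging receptor Ackr3, and it retains haematopoietic and progenitor cells in their niches. It was at 72.1, 74.8 and 70.4 RPM in LacZ, 18.4, 18.7 and 16.4 in Nrf1, and 19.9, 17.7 and 21.3 in Nrf2. LacZ library b did not stand apart for this gene, and the Nrf1 and Nrf2 libraries overlapped. *Cxcl12* was 3.84-fold lower with Nrf1 (log2 -1.94, SE 0.08, adjusted p = 4.43e-12) and 3.47-fold lower with Nrf2 (log2 -1.80, SE 0.07, adjusted p = 4.78e-11).

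*Cxcl16* and *Cx3cl1* encode the chemokines that are made as transmembrane proteins and released by the proteases Adam10 and Adam17. *Cxcl16*, the ligand of Cxcr6, was at 45.3, 61.0 and 51.0 in LacZ, 24.0, 22.8 and 24.1 in Nrf1, and 20.4, 22.7 and 21.6 in Nrf2. Every library with Nrf1 or Nrf2 was under every LacZ library. The Nrf2 libraries were just under the Nrf1 libraries as RPM and overlapped them after scaling by the size factors. It was 2.08-fold lower with Nrf1 (log2 -1.06, SE 0.10, adjusted p = 1.33e-07) and 2.26-fold lower with Nrf2 (log2 -1.17, SE 0.10, adjusted p = 1.46e-07). *Cx3cl1*, the ligand of Cx3cr1 on monocytes and macrophages, was at 25.9, 26.2 and 24.5 in LacZ, 7.24, 9.13 and 7.89 in Nrf1, and 15.3, 13.5 and 15.7 in Nrf2. Its groups did not overlap and Nrf2 was intermediate. *Cx3cl1* fell by 1.58 with Nrf1 (SE 0.11, adjusted p = 7.20e-09) and by 0.70 with Nrf2 on the log2 scale (SE 0.09, adjusted p = 1.12e-05). It was 1.84-fold higher with Nrf2 than with Nrf1 (log2 0.88, SE 0.12, adjusted p = 5.94e-06).

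*Ccl20*, the ligand of Ccr6 on T helper 17 cells, B cells and dendritic cells, was the exception. It was at 17.6, 10.99 and 11.99 RPM in LacZ, 19.8, 19.1 and 20.4 in Nrf1, and 13.6, 14.3 and 12.6 in Nrf2. The Nrf1 libraries lay above all others, while the Nrf2 libraries lay within the range of LacZ. With Nrf1 *Ccl20* was 1.55-fold higher than with LacZ (log2 0.63, SE 0.14, adjusted p = 0.000866). The adjusted p of this increase stayed under 0.05 without LacZ library b (log2 0.48, adjusted p = 0.0038) or c (log2 0.56, adjusted p = 0.00709), but the fold change then fell under 1.5, and so it did when libraries were scaled by total reads (log2 0.55). With Nrf2 the difference from LacZ was 0.11 (95% interval -0.21 to 0.42, adjusted p = 0.564), and it was -0.0374 without LacZ library b. *Ccl20* was lower with Nrf2 than with Nrf1 by 0.53 on the log2 scale (SE 0.09, adjusted p = 5.08e-05), which is under the fold cutoff.

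**Figure D2:**
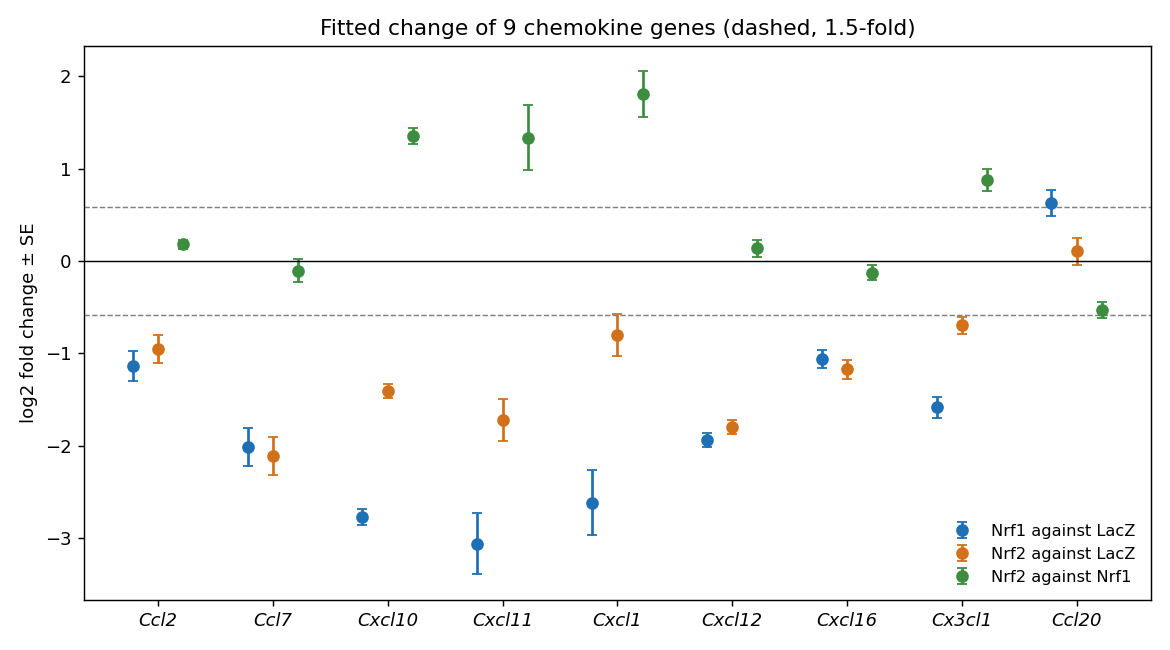
Fitted log2 fold change with its standard error for the 9 chemokine genes tested, in the comparisons of Nrf1 with LacZ, Nrf2 with LacZ and Nrf2 with Nrf1, with dashed lines at 1.5-fold. The points for Nrf2 against Nrf1 lie above the upper line for *Cxcl10*, *Cxcl11*, *Cxcl1* and *Cx3cl1* and between the lines for the other 5 genes.

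Compared directly, the 2 factors left 4 of the 9 genes at different levels, *Cxcl1*, *Cxcl10*, *Cxcl11* and *Cx3cl1*, all higher with Nrf2. Among all genes tested in this comparison, 11.3% were called higher and 4.66% lower. Libraries with Nrf2 were all above those with Nrf1 for 5 of the 9 genes and for 31.4% of all genes tested, and all below for 1 of the 9, *Ccl20*, and for 32.3% of all. The 4 genes remained called with any single library left out. For *Ccl7*, *Cxcl12* and *Cxcl16* the Nrf1 and Nrf2 libraries overlapped after scaling, with differences of -0.11 (95% interval -0.37 to 0.15), 0.14 (-0.06 to 0.33) and -0.12 (-0.29 to 0.04) on the log2 scale, so that none of these intervals reached the fold cutoff. For *Ccl2* the Nrf2 libraries were all above the Nrf1 libraries, by 0.18 (SE 0.05, adjusted p = 0.0079), also under the cutoff.

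Markers of other cell types of the heart moved with the chemokine genes. The marker counts below stand beside 17.1% of all genes tested called lower and 11.3% higher with Nrf1, and 9.81% and 9.2% with Nrf2. Of 16 leukocyte markers tested, 15 were lower with Nrf1 and 14 with Nrf2, and their summed level was 225 to 353 RPM in LacZ, 123 to 132 in Nrf1 and 143 to 154 in Nrf2. Without LacZ library b the counts were again 15 and 14. The exception among them with Nrf1, chosen after its values were seen, was *Csf1r*, the receptor of the macrophage growth factor Csf1, at 0.46 (SE 0.12, adjusted p = 0.00304), and at 0.63 and past the fold cutoff without LacZ library b. Fibroblast markers, 7 of 8 of which could be tested, were lower for 7 with Nrf1 and 6 with Nrf2, and their sum was 3054 to 3687 in LacZ, 759 to 782 in Nrf1 and 1482 to 1584 in Nrf2. Most reads in this sum were of *Col3a1*, at 2705 to 3193 RPM in LacZ, 642 to 666 in Nrf1 and 1305 to 1398 in Nrf2. The median log2 fold change of the 7 markers was -1.63 with Nrf1 and -1.12 with Nrf2. Endothelial markers fell for 6 of 8 with either factor, from sums of 223 to 237 in LacZ to 135 to 143 in Nrf1 and 129 to 153 in Nrf2. With Nrf2 the endothelial count was 5 in limma with an intensity trend. It was also 5 without LacZ library a, LacZ library c, Nrf2 library a or Nrf2 library b. No marker of these lists was at 0 reads in every library of a group. Their part in the lower chemokine levels was not tested. Of 8 cardiomyocyte markers with reads, with a summed level of 10890 to 12009 in LacZ, 9019 to 9055 in Nrf1 and 11674 to 11974 in Nrf2, 2 were called lower and 1 higher with Nrf1. With Nrf2, limma called 0 of the 8 with voom weights and 0 with an intensity trend, although 6 had an unadjusted p under 0.05, since their changes were under the fold cutoff.

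**Figure D3:**
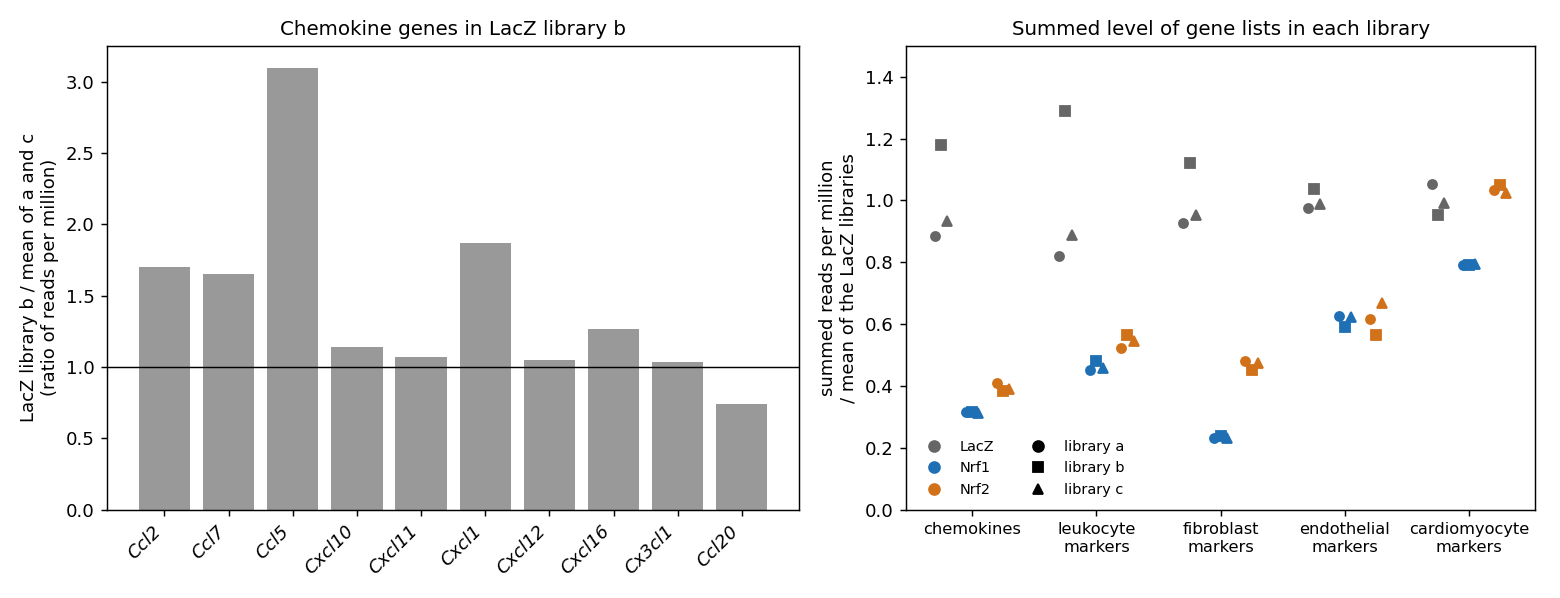
Left, ratio of RPM in LacZ library b to the mean of LacZ libraries a and c for the 10 chemokine genes. Right, summed RPM of the chemokine genes and of the marker lists in each library, divided by the mean of the LacZ libraries, where leukocyte, fibroblast and endothelial sums lie under LacZ in all Nrf1 and Nrf2 libraries. Most reads in the fibroblast sum are of *Col3a1*.

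Most of the other chemokine ligands that could be tested were lower as well. Of 26 further ligand genes, 10 were high enough to be tested, for which a mean of 10 in LacZ alone was enough. With Nrf1 and with Nrf2, 8 were called lower, with median log2 fold changes of -1.84 and -1.55. Over all genes tested, 17.1% and 9.81% were called lower. With no minimum mean, 12 of 23 ligands were called lower with Nrf1 and 10 of 23 with Nrf2. The values of *Cxcl3*, a neutrophil attractant, were -3.23 with Nrf1 (SE 0.59, adjusted p = 0.00017) and -2.20 with Nrf2 (SE 0.40, adjusted p = 0.000281), from 11 to 18 reads in the LacZ libraries and 0 to 4 in the others, and it was at -2.32 with Nrf1 without Nrf1 library a. *Ccl12*, a monocyte attractant next of kin to *Ccl2*, was at 7.82, 16.7 and 6.57 RPM in LacZ and between 1.00 and 2.46 in the other 6 libraries. *Ccl3* and *Ccl4*, the macrophage inflammatory proteins, fell by 2.02 and 2.34 with Nrf1 and by 1.61 and 1.71 with Nrf2, and *Ccl9* fell by 1.90 and 2.14, all on the log2 scale. LacZ library b was above the other LacZ libraries for 10 of 10 of the tested ligands, and without it 8 were again called lower with either factor.

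The ligand called higher with Nrf2 was *Cxcl13*, the Cxcr5 ligand that attracts B cells. It was at 0.434, 2.47 and 0.902 RPM in LacZ, 0.489, 0.301 and 0.589 in Nrf1, and 4.07, 3.66 and 3.38 in Nrf2. All Nrf2 libraries were above every other library, with 34 to 48 reads against 3 to 20. *Cxcl13* was higher with Nrf2 by 1.95 on the log2 scale (SE 0.40, adjusted p = 0.000705), and by 1.35 without LacZ library a and 2.57 without LacZ library b. It was 2.94 higher with Nrf2 than with Nrf1 (SE 0.34, adjusted p = 6.74e-07), whereas Nrf1 and LacZ overlapped (log2 -1.002, 95% interval -2.19 to 0.19), although without LacZ library a *Cxcl13* was called lower with Nrf1 (log2 -1.60, adjusted p = 0.0111).

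**Figure D4:**
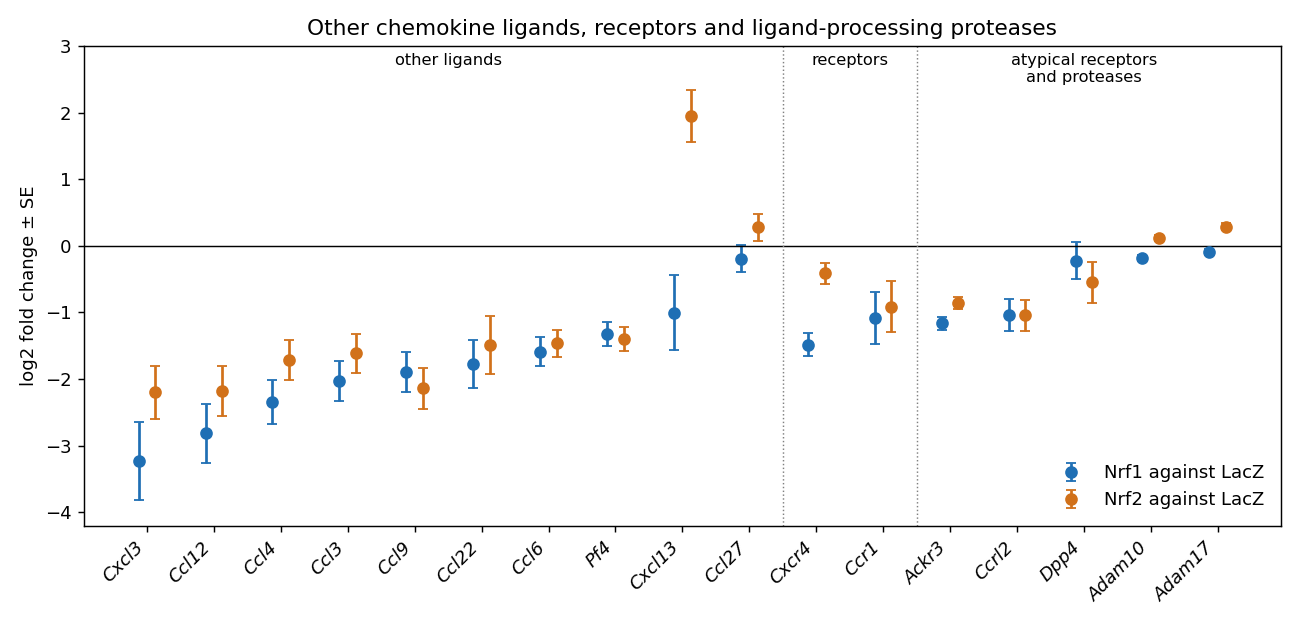
Fitted log2 fold change with its standard error, with Nrf1 and with Nrf2 relative to LacZ, for further chemokine ligands, the chemokine receptors described here, and atypical receptors and proteases, all high enough to be tested. *Cxcl13* at 1.95 with Nrf2 is the point farthest above 0, and *Cxcl3* at -3.23 with Nrf1 the one farthest below it.

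Few chemokine receptors reached the minimum for testing, 3 of 18 genes, and *Cxcr4* and *Ccr1* are described here. *Cxcr4*, the receptor of Cxcl12, was at 9.77, 13.3 and 11.5 RPM in LacZ, 3.62, 4.21 and 3.65 in Nrf1, and 9.74, 7.13 and 7.15 in Nrf2. Its Nrf2 libraries lay above the Nrf1 libraries, and it was 1.06 higher with Nrf2 than with Nrf1 on the log2 scale (SE 0.18, adjusted p = 6.31e-05). Against LacZ, *Cxcr4* fell by 1.48 with Nrf1 (SE 0.18, adjusted p = 2.33e-06) and was at -0.41 with Nrf2, under the fold cutoff (adjusted p = 0.0328). *Ccr1*, a receptor of Ccl3 and Ccl5, was called lower with Nrf1 (log2 -1.08, adjusted p = 0.0211) but lost the call without LacZ library b (adjusted p = 0.0783) or c (0.0559), or without Nrf1 library b (0.0639) or c (0.0622), and with Nrf2 it was at -0.91 (adjusted p = 0.0539) and was not called. It was called with Nrf2 without LacZ library a (-1.33, adjusted p = 0.00377) or Nrf2 library b (-1.15, adjusted p = 0.0466), in limma with an intensity trend (adjusted p = 0.044) and when libraries were scaled by total reads (adjusted p = 0.0368), so that the call of *Ccr1* depended on the library or setting in both comparisons.

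Proteins that clear or cut chemokines were divided. *Ackr3*, which scavenges Cxcl12, was at 33.2, 35.7 and 29.6 RPM in LacZ, 13.4, 14.9 and 13.3 in Nrf1, and 16.1, 18.5 and 16.4 in Nrf2. It fell by 1.16 with Nrf1 (SE 0.10, adjusted p = 4.58e-08) and by 0.85 with Nrf2 (SE 0.09, adjusted p = 1.73e-06) on the log2 scale. *Ccrl2*, an atypical receptor that presents chemerin, fell by 1.04 with either factor. The proteases Adam10 and Adam17, which shed Cxcl16 and Cx3cl1, were not called, with *Adam10* at -0.18 and 0.11 and *Adam17* at -0.09 and 0.29 with Nrf1 and Nrf2.

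Genes of interferon signalling, the pathway known to induce *Cxcl10* and *Cxcl11*, were called lower for 6 of 12 with Nrf1 and 4 of 12 with Nrf2, with medians of -0.56 and -0.23. Of all genes tested, 17.1% and 9.81% were called lower. *Irf7*, a transcription factor of the interferon response and itself interferon-induced, was at 386, 507 and 425 RPM in LacZ, 22.3, 27.5 and 27.0 in Nrf1, and 108, 94.6 and 91.3 in Nrf2. It fell by 4.02 with Nrf1 (SE 0.12, adjusted p = 2.63e-13) and by 2.06 with Nrf2 (SE 0.08, adjusted p = 3.35e-11) on the log2 scale. *Irf9* and *Stat2*, which carry the signal of type I interferon to the nucleus, were called lower as well, *Irf9* at -2.33 and -1.04 and *Stat2* at -2.23 and -1.06 with Nrf1 and Nrf2. These genes were also called higher with Nrf2 than with Nrf1, *Irf7* by 1.95, *Irf9* by 1.28 and *Stat2* by 1.16 on the log2 scale. Of the 12 genes of the list, 4 were called higher in this direct comparison and 8 were not called, where 11.3% of all genes tested were called higher and 4.66% lower. Whether interferon signalling had a part in the levels of *Cxcl10* and *Cxcl11* was not tested. *Ifngr1* and *Irf1* fell by 0.71 and 0.68 with Nrf1, and with Nrf2 they were at -0.21 and -0.56, under the fold cutoff, which *Irf1* passed when libraries were scaled by total reads (-0.66) and without LacZ library a (-0.67), Nrf2 library a (-0.597) or Nrf2 library c (-0.592). The kinases Jak1, Jak2 and Tyk2 were not called in any comparison.

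Among genes of the NF-κB pathway and the cytokines that feed it, 6 of 12 were called lower and 1 higher with Nrf1, and 4 were called lower with Nrf2. Of all genes tested, 17.1% were called lower and 11.3% higher with Nrf1, and 9.81% were called lower with Nrf2. The cytokine *Il6* was at 7.82, 14.3 and 13.3 RPM in LacZ and between 2.80 and 4.57 in the other 6 libraries, and it fell by 1.498 with Nrf1 (SE 0.25, adjusted p = 7.39e-05) and 1.602 with Nrf2 (SE 0.26, adjusted p = 9.11e-05) on the log2 scale. *Il1a* was called lower at -2.34 and -1.74 and *Il1b* at -2.504 and -2.51, both at under 3 RPM in every library, and the value of *Il1b* with Nrf1 was -1.49 without Nrf1 library b and -3.22 without Nrf1 library a. Both genes reached the minimum mean of 10 in LacZ alone. Without LacZ library b, *Il1b* fell under that mean and was not tested with either factor, nor with Nrf1 without LacZ library a. At a mean of at least 100, 10 genes of this list were tested. Of these, 4 were called lower and 1 higher with Nrf1, and 2 lower and 0 higher with Nrf2. *Nfkb2*, a subunit of the factor, fell by 0.97 and 0.86. The inhibitor *Nfkbia* and the receptor *Il1r1* were called lower with Nrf1 at -0.88 and -0.98, and were at -0.38 and -0.52 with Nrf2, under the fold cutoff, which *Il1r1* passed when libraries were scaled by total reads (-0.61). *Rela* and *Nfkb1*, the subunits of the main NF-κB dimer, were within 0.42 of LacZ on the log2 scale and were not called. *Tnfrsf1a*, the main TNF receptor, is named here because of its values. It was higher with Nrf1 by 0.59 (SE 0.05, adjusted p = 1.34e-08) and came under the fold cutoff without LacZ library a (0.57), LacZ library b (0.57) or Nrf1 library c (0.58) and also when scaled by total reads (0.52) or re-centred on the median gene (0.54). *Nfkbib*, another inhibitor of NF-κB, was the 1 gene of this list called in the direct comparison, lower with Nrf2 than with Nrf1 (log2 -0.62, SE 0.10, adjusted p = 2.21e-05), and without Nrf1 library b it was under the fold cutoff (-0.56). In that comparison 4.66% of all genes tested were called lower.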

How the data were processed

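RNA of NRVMs infected with Adeno-LacZ, Adeno-Nrf1 or Adeno-Nrf2 was sequenced in 9 stranded mRNA libraries, 3 per group. According to the study's methods and the submitters' processing notes, the authors used FastQC 0.11.4 for quality control, HISAT2 2.0.4 for alignment against the rat genome build Rnor 6.0, SAMtools 0.1.18 for discarding duplicates, featureCounts 1.6.0 for counting and edgeR 3.20.5 for comparing groups. Removing duplicates from single-end reads can shrink differences of highly expressed genes, which was not tested. How reads shared by paralogs were counted is not given in the sources used here.

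The authors deposited 3 tables, 1 per pair of groups. The signal deposited is the mean over a group's libraries of reads divided by size factors, set separately for each pair. The tables also hold the authors' fold changes and p-values, which were not used, and 0 unused columns of single samples.

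Size factors and whole reads per library were solved from the decimals of both means of each group at a relative tolerance of 7e-10, with 15093 genes solved for all 9 libraries. The 2 gene symbols that stood on several rows were left out. Recovered reads, scaled by the authors' size factors of the pair, were fitted across all genes with limma 3.58.1 (voom weights, R 4.3.3) where the mean was at least 10 in either group, with Benjamini-Hochberg adjustment, and called at the study's cutoffs, a fold change over 1.5 and an adjusted p under 0.05. The steps were tested on simulated data with Python 3.11.15 and R. Depth was 7759576 to 11802341 recovered reads per library, so genes with a few reads, such as *Ccl5*, were measured with wide error. Levels were not compared between genes, since lengths were not used.

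The chemokine genes and the gene lists were chosen with earlier results of these data known. From the lists of other ligands, receptors, atypical receptors and proteases, interferon signalling and NF-κB genes, up to 6 called genes with the largest fold change were named, and others after their values were seen. Some genes of these lists are not reported here by name. The alternatives were fold cutoffs of 2 or none, an adjusted p under 0.01, a mean of at least 100 or no minimum, re-centring on the median gene, a pseudocount of 1 on the means, the fold of means alone, limma with an intensity trend, leaving out each library and, chosen after seeing the data, scaling by total reads.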

Additional observations from a re-analysis of the deposited data

How the results depend on the processing

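With Nrf1 against LacZ, 9 chemokine genes were called, and every alternative stayed within 1.5 times of that count, with 8 to 10 when 1 library was left out. With Nrf2 against LacZ, 8 were called, 7 to 9 with 1 library left out, and 5 at a fold cutoff of 2, where *Ccl2*, *Cxcl1* and *Cx3cl1* dropped out. The upper counts of 10 and 9 include *Ccl5*, which reached the minimum mean for testing only with a LacZ library left out. With Nrf2 against Nrf1, 4 were called, 4 to 4 with 1 library left out, and 2 at a mean of at least 100, because only 6 chemokine genes reached it. At a fold cutoff of 2, *Cx3cl1* (log2 0.88) dropped out of this comparison. For single chemokine genes, 412 values under an alternative kept direction and call, 10 lost the call, 2 gained it and 1 turned, which was *Ccl20* with Nrf2 against LacZ, at -0.0374 without LacZ library b and up to 0.335 without LacZ library a. The increase of *Ccl20* with Nrf1 was also lost at a fold cutoff of 2 and after re-centring on the median gene (log2 0.58). *Ccl2* and *Ccl20* passed in Nrf2 against Nrf1 once no fold cutoff was used. For the 36 other genes named or plotted, over all these alternatives, 1534 values kept direction and call, 21 lost the call, 52 gained it, 28 of them with no fold cutoff, and 24 turned, each in a comparison in which the gene was not called. At a fold cutoff of 2 the calls lost were those of *Ifngr1*, *Irf1*, *Il1r1*, *Nfkb2*, *Nfkbia* and *Tnfrsf1a* with Nrf1, *Ackr3* and *Nfkb2* with Nrf2, and *Nfkbib* in Nrf2 against Nrf1, and at an adjusted p under 0.01 that of *Ccr1* with Nrf1. *Ccl22* lost its call with Nrf2 against LacZ without Nrf2 library a (log2 -0.83, adjusted p = 0.0633).

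Scaling by total reads, chosen after seeing the data, moved the median gene with Nrf2 against LacZ to -0.0985 and turned no chemokine gene. No paired analysis was possible because the recovered libraries carry no replicate number of the labels. Genes with few reads, such as *Ccl5*, *Cxcl11* and *Cxcl3*, are limited by depth.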
